A study of Mus musculus with 6 samples.

Results

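The genes described here form the switch that decides whether a cell in G1 enters S phase: the D cyclins Ccnd1, Ccnd2 and Ccnd3, their kinases Cdk4 and Cdk6, the substrate Rb1, and the inhibitors Cdkn1b, Cdkn2a, Cdkn2b and Cdkn2c. They were taken by symbol from the deposited gene table, and all 10 were found, 1 row each, among 30862 gene rows. All 10 also passed the filter on low counts that left 17186 genes for testing. The cells were granulosa cells from ovaries of 21-day-old female ICR mice, isolated by enzyme digestion and left to adhere for 12 h. In 3 libraries the cells had been kept for 24 h with sonicated polystyrene particles (PS-MP) of 100 nm at 750 µg/mL. In the 3 control libraries they had been kept for 24 h at 0 µg/mL. The cells of both groups are thus primary cultures of an outbred strain, and the labels name no genetic change in either.

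A D cyclin binds CDK4 or CDK6, and the active kinase phosphorylates the retinoblastoma protein, which then releases E2F transcription factors that drive genes of DNA synthesis. INK4 proteins (p16, p15 and p18) bind CDK4 and CDK6 and keep D cyclins off them, whereas p27, the product of Cdkn1b, chiefly blocks cyclin E with CDK2 and is itself bound by cyclin D complexes. In the mouse ovary cyclin D2 is the D cyclin that follicle-stimulating hormone induces in granulosa cells, and p27 accumulates when these cells stop dividing and luteinise.

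The libraries held 56967176 to 70240738 estimated counts, and each member had between 720 and 99569 of them per library. Some markers of granulosa cells were near 0: Foxl2 stayed between 0.0577 and 0.204 FPKM (fragments per unit of transcript length, scaled to depth), Nr5a1 was listed at 0 in 4 of the 6 libraries, and Cyp11a1 reached 0.0360 FPKM at most. Of the 11 granulosa markers found, Inhba was the highest, at 87.5 to 133 FPKM with PS-MP and 109 to 146 FPKM in control cells. Besides Inhba, only Gja1 and Fst were at 3.25 FPKM or above in every library. Inhbb averaged 2.19 FPKM with PS-MP and 2.18 FPKM in control cells, and Inha 1.11 and 0.933 FPKM. Acta2 of smooth muscle was at 1406 to 2130 FPKM with PS-MP and 1550 to 2064 FPKM in control cells. Over all tested genes the library number took a median of 61.2% of the variance between libraries, and treatment 7.4%. The number splits the libraries into more classes than treatment does, so on average it takes a larger share even without an effect. Deviations from group means correlated at 0.81, 0.15 and 0.62 between same-numbered libraries 1, 2 and 3. PS-MP 2 was closer to control 3 (0.38) than to control 2. In bulk RNA, fewer cells of a type and less RNA per cell cannot be told apart. No gene was called changed between PS-MP and control cells by edgeR's quasi-likelihood test (0.00% of 17186 genes; calls needed 1.5-fold and an adjusted p below 0.05). At an unadjusted p under 0.05 edgeR gave 226 genes (1.32%), of which 0 were members. At the thresholds for a call, limma called 0 and DESeq2 3 of all genes. Accordingly 0 of the 10 members were called, with edgeR, DESeq2 or limma, and the lowest unadjusted p among them in edgeR was 0.29, that of Cdk4. The members' median log2 fold change was -0.02, against 0.00 over all tested genes, and 0 of the 10 had groups that did not overlap in CPM (counts scaled to library size), where PS-MP was wholly higher in 3.53% and wholly lower in 2.68% of all tested genes.

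**Figure D1:**
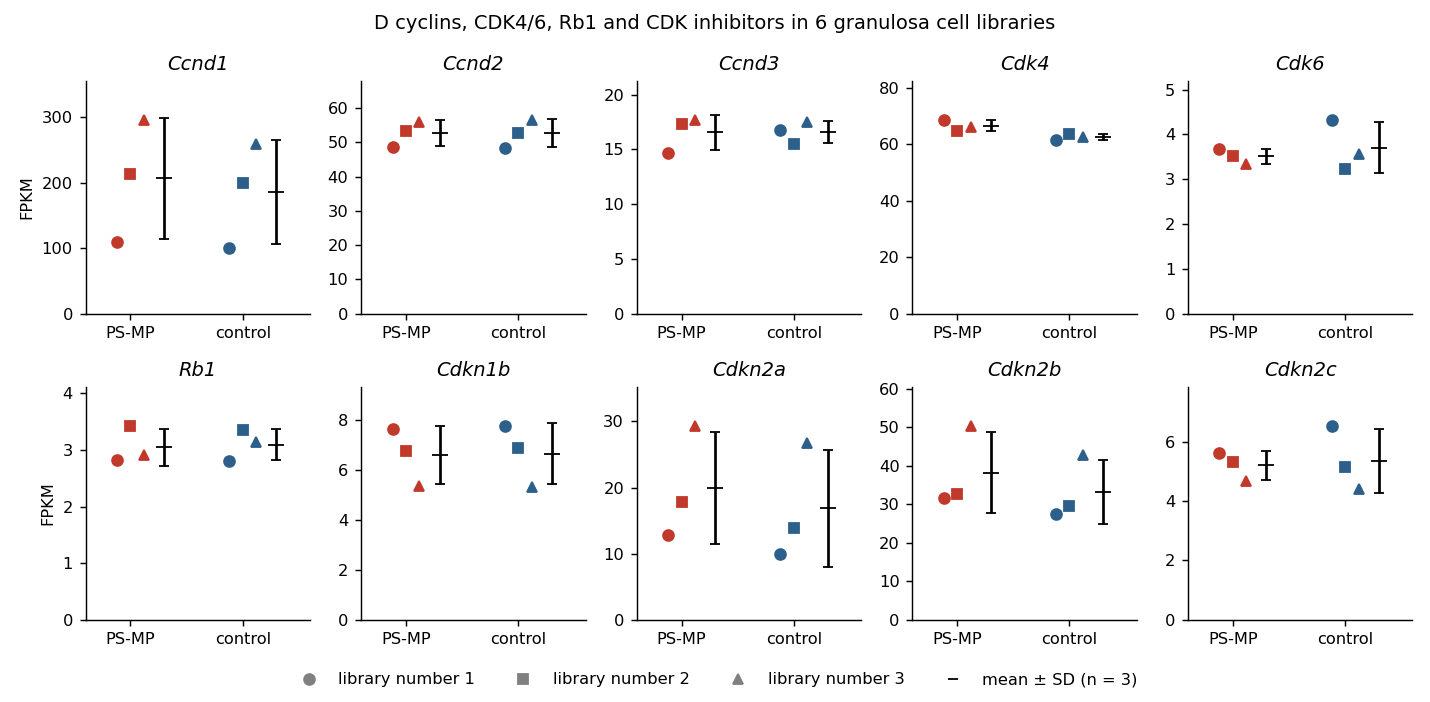
FPKM of each member in the 3 PS-MP libraries (red) and the 3 control libraries (blue); marker shapes give the library number, and the bars beside them the mean ± SD of 3 libraries. Same-shaped points lie at like heights in both groups for Ccnd1, Ccnd2, Cdkn1b, Cdkn2a and Cdkn2b, and the group means differ by less than the control SD in every panel except that of Cdk4.

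Ccnd1, which encodes cyclin D1 (ENSMUSG00000070348, chromosome 7, 144483668 to 144493662, GRCm39, as for all coordinates), was the most abundant member, at rank 190 of the tested genes by mean FPKM. It stood at 110, 213 and 296 FPKM in PS-MP libraries 1, 2 and 3, against 100.2, 199 and 258 FPKM in control libraries 1, 2 and 3. The libraries numbered 1 were thus the lowest and those numbered 3 the highest in both groups, and the ranges of the groups overlapped. The means were 206 ± 93.0 FPKM with PS-MP and 186 ± 79.8 FPKM in control cells (SD, n = 3 each), with a log2 fold change of 0.13 ± 0.42 (SE; adjusted p = 1.00, edgeR). The 95% interval of that fold change ran from 0.551-fold to 2.19-fold, so a change of 1.5-fold either way was within reach of the error. In this fit, which ignores the library number, the estimate was -0.17 without control 1 and -0.22 without PS-MP 3. Leaving out either one leaves a same-numbered library without its partner. With the library number as a term in the fit, the estimate was 0.12, and 0.085 to 0.15 with a same-numbered pair left out. In GENCODE M39, 48.4% of the Ccnd1 exon bases lie antisense to the neighbouring gene LTO1, which was at 2.11 to 2.55 FPKM in PS-MP and 1.66 to 2.31 FPKM in control libraries. The library kit marked strand, per the labels' protocols, but whether the counting used it is not given. Antisense overlap was 15.8% of exon bases for Ccnd2, at most 7.74% for the remaining members other than Cdk4, and 0% for Cdkn2a and Cdkn2b.

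Ccnd2, the hormone-induced D cyclin of the follicle (ENSMUSG00000000184, chromosome 6, 127102125 to 127129156), came next below Cdk4 in level and varied far less between libraries than Ccnd1. It was at 48.5, 53.2 and 56.0 FPKM in PS-MP libraries and at 48.4, 52.8 and 56.5 FPKM in control libraries. Each PS-MP value thus had a control value of the same number within 1 FPKM, and the means of 52.6 ± 3.79 and 52.6 ± 4.06 FPKM (SD, n = 3 each) did not separate. PS-MP over control came to -0.02 ± 0.09 (log2, SE) with an adjusted p of 1.00 (edgeR), and the interval of 0.856-fold to 1.14-fold lay inside 1.5-fold. Ccnd3, the third D cyclin (ENSMUSG00000034165, chromosome 17, 47815976 to 47910614), was at 14.7, 17.3 and 17.7 FPKM in PS-MP and at 16.8, 15.5 and 17.5 FPKM in control libraries. Its values interleaved between the groups, with a log2 fold change of -0.02 ± 0.09 (SE; adjusted p = 1.00, edgeR).

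FPKM is scaled to length, so the 3 cyclins can be set side by side. Ccnd1 made up 63.5%, 75.1% and 80.1% of D cyclin FPKM in PS-MP libraries 1, 2 and 3, against 60.6%, 74.5% and 77.7% in control libraries 1, 2 and 3. Ccnd2 made up 28.0%, 18.8% and 15.2% in PS-MP libraries and 29.3%, 19.8% and 17.0% in control libraries. In all 6 libraries the order of levels was therefore Ccnd1, Ccnd2, Ccnd3, and the ranges of the 3 genes did not overlap. What varied in the sum was almost wholly Ccnd1: the summed level was 173, 283 and 369 FPKM in PS-MP libraries, against 165, 268 and 332 FPKM in control libraries.

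**Figure D2:**
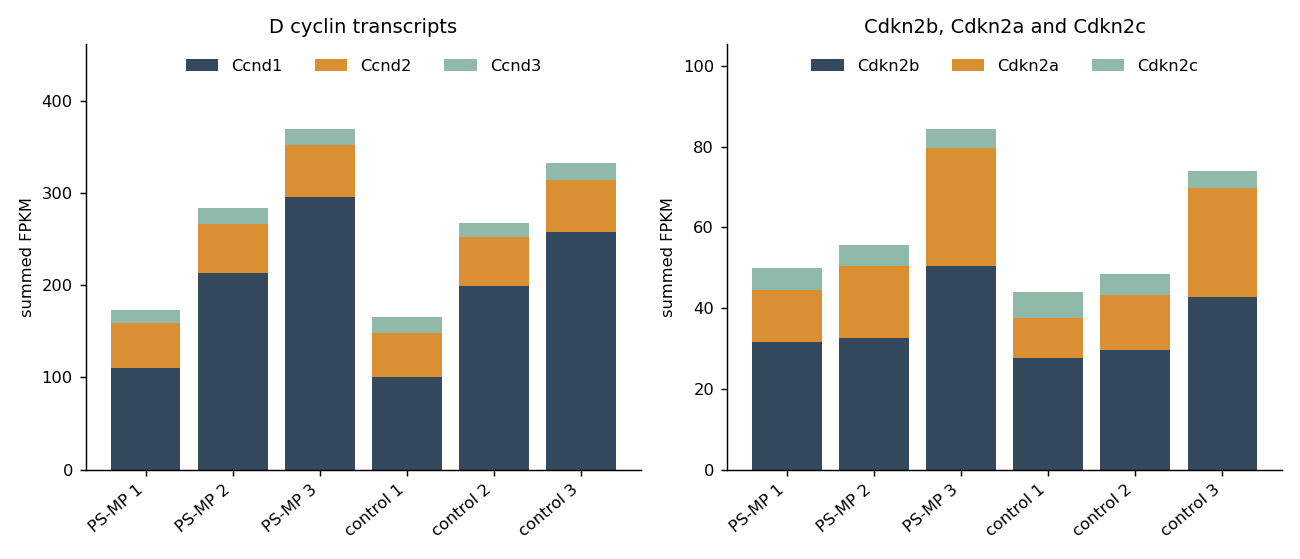
Summed FPKM of the D cyclins (left) and of Cdkn2b, Cdkn2a and Cdkn2c (right) in each PS-MP library and each control library, stacked by gene. The D cyclin sum ran from 173 to 369 FPKM with PS-MP and from 165 to 332 FPKM in control cells, and the dark Ccnd1 segment accounts for most of that range.

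Cdk4, the more abundant partner kinase of D cyclins (ENSMUSG00000006728, chromosome 10, 126899403 to 126903789), was the steadiest member. It was at 68.7, 64.9 and 66.4 FPKM in PS-MP libraries, against 61.5, 63.8 and 62.8 FPKM in control libraries. On this scale the lowest PS-MP library lay above the highest control library. That was so for 1 of the 10 members, and PS-MP lay wholly above control in 4.57% of all tested genes. Summed over all genes, FPKM was also higher in every PS-MP library (284964 to 290681) than in every control library (274177 to 283405). In CPM with TMM scaling, which adjusts for such shifts, the groups overlapped, at 231 to 241 with PS-MP and 220 to 233 in control cells. PS-MP over control came to 0.07 ± 0.06 (log2, SE) with an adjusted p of 1.00 (edgeR) and an interval from 0.951-fold to 1.16-fold. Of the Cdk4 exon bases 19.0% lie antisense to Tspan31, which was nearly as abundant (48.3 to 56.0 FPKM with PS-MP and 47.3 to 55.5 FPKM in control cells).

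Cdk6, the other D cyclin kinase (ENSMUSG00000040274, chromosome 5, 3391485 to 3572225), was much lower. It was at 3.68, 3.52 and 3.35 FPKM in PS-MP libraries and at 4.33, 3.23 and 3.56 FPKM in control libraries. The PS-MP values lay within the range of the control values, whose highest was control 1. Cdk4 thus held 94.9% to 95.2% of the summed Cdk4 and Cdk6 FPKM in PS-MP and 93.4% to 95.2% in control libraries. Rb1, the retinoblastoma protein gene (ENSMUSG00000022105, chromosome 14, 73421113 to 73563262), was the lowest member, at 2.82, 3.43 and 2.92 FPKM with PS-MP, against 2.80, 3.36 and 3.14 FPKM in control cells. The libraries numbered 2 were the highest in both groups. The log2 fold changes were -0.09 ± 0.11 for Cdk6 and -0.04 ± 0.12 for Rb1 (SE; adjusted p = 1.00 each, edgeR).

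Cdkn1b, which encodes p27 (ENSMUSG00000003031, chromosome 6, 134897364 to 134902476), was at 7.65, 6.78 and 5.34 FPKM in PS-MP libraries and at 7.76, 6.88 and 5.34 FPKM in control libraries. The libraries numbered 1 were the highest and those numbered 3 the lowest, the reverse of Ccnd1, and the means were 6.59 ± 1.17 FPKM with PS-MP and 6.66 ± 1.23 FPKM in control cells (SD, n = 3 each). The log2 fold change, -0.04 ± 0.18 (SE), had an adjusted p of 1.00 (edgeR). The ratio of Ccnd1 to Cdkn1b FPKM was 14.4, 31.4 and 55.4 in PS-MP libraries 1, 2 and 3, against 12.9, 29.0 and 48.4 in control libraries 1, 2 and 3. That ratio thus spanned a wider range among libraries of 1 group than any difference between same-numbered libraries.

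The INK4 genes Cdkn2a (ENSMUSG00000044303, 89192708 to 89212890) and Cdkn2b (ENSMUSG00000073802, 89224536 to 89229276) are neighbours on the minus strand of chromosome 4, 11646 bases apart. Cdkn2a has 2 starts that share later exons: the downstream start gives p16, a CDK4/6 inhibitor, and the upstream start gives p19Arf, which is read in another frame and acts on MDM2 and p53. The deposited table has 1 row for both transcripts, so their levels cannot be told apart. The 300 bases around each start (250 before and 50 after it) are shown because these genes lie side by side and were both highest in the libraries numbered 3. They come from RefSeq (GRCm38.p6) and each matched GRCm39 exactly once, at chr4:89212807-89213106 for p19Arf, chr4:89200380-89200679 for p16 and chr4:89229220-89229519 for p15, all on the minus strand. Capitals mark matches on either strand to TTTCCCGC or TTTGGCGC (E2F), TGANTCA (AP-1), TGACGTCA (cyclic AMP response element) and GGGCGG (GC box), none of which overlapped here.
Cdkn2a upstream start (p19Arf): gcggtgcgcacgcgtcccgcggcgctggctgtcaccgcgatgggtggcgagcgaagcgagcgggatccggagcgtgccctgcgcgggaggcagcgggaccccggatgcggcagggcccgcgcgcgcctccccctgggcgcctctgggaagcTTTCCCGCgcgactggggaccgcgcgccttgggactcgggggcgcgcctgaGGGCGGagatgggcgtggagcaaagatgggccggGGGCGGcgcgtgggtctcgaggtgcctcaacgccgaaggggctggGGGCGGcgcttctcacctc
Cdkn2a downstream start (p16): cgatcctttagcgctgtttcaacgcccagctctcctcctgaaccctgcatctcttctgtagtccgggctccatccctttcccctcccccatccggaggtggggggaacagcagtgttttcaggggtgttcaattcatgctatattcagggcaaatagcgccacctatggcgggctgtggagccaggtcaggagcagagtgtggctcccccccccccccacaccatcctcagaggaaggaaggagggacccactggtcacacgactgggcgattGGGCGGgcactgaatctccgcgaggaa
Cdkn2b start (p15): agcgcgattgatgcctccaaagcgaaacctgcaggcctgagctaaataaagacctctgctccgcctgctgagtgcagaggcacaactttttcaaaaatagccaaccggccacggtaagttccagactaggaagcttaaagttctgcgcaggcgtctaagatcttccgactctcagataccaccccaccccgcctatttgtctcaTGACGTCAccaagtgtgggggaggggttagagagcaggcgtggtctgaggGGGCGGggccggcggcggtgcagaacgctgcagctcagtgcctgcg
The p19Arf window held 1 TTTCCCGC, which 1.07% of 32851 promoter windows of this length hold, and 3 GGGCGG, found at least once in 35.7% of them. The p16 window held 1 GGGCGG and the p15 window 1 GGGCGG and 1 TGACGTCA (1.79% of windows). TTTGGCGC (0.514% of windows) and TGANTCA (7.81%) were in none of the 3. CpG dinucleotides numbered 45, 12 and 18 in the p19Arf, p16 and p15 windows, against a median of 7 over all windows. In that order, 98.1%, 60.4% and 70.3% of all windows held fewer. The table matched 7 of the 10 members, and the windows of Ccnd3, Cdk4, Cdk6, Cdkn1b and Cdkn2c are not printed.

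Cdkn2a was at 12.8, 17.8 and 29.3 FPKM in PS-MP libraries 1, 2 and 3, against 9.89, 13.8 and 26.8 FPKM in control libraries 1, 2 and 3. Each PS-MP library lay above the control library of its number, but the numbers differed far more than the groups, which overlapped. The means were 20.0 ± 8.49 FPKM with PS-MP and 16.8 ± 8.86 FPKM in control cells (SD, n = 3 each), with a log2 fold change of 0.23 ± 0.42 (SE; 0.596-fold to 2.31-fold; adjusted p = 1.00, edgeR). The estimate was -0.04 without control 1 and -0.16 without PS-MP 3. Cdkn2b, which encodes p15, an INK4 inhibitor known as a target of TGF-beta signalling, was at 31.6, 32.6 and 50.3 FPKM in PS-MP libraries, against 27.5, 29.5 and 42.8 FPKM in control libraries. Libraries numbered 3 stood above the other two of their group, and the estimate was 0.18 ± 0.23 on the log2 scale (SE; 0.782-fold to 1.64-fold; adjusted p = 1.00, edgeR), or -0.07 without PS-MP 3.

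Cdkn2c, which encodes p18 (ENSMUSG00000028551, chromosome 4, 109518073 to 109524386), ran the other way across the libraries. It was at 5.62, 5.31 and 4.68 FPKM in PS-MP libraries and at 6.53, 5.14 and 4.39 FPKM in control libraries, with the PS-MP values inside the control range. The log2 fold change, -0.06 ± 0.16 (SE), had an adjusted p of 1.00 (edgeR). Of the summed FPKM of these 3 genes, in which the Cdkn2a row also counts p19Arf and the fourth INK4 gene Cdkn2d is left out, Cdkn2b held 58.6% to 63.2% with PS-MP and 57.9% to 62.6% in control cells. With Cdkn2d added, a choice made after the values had been seen, it held 48.5% to 53.4% with PS-MP and 49.8% to 52.1% in control cells, and was the highest of the 4 genes in all 6 libraries. The Cdkn2a share of the 3 genes was 25.5%, 31.9% and 34.8% in PS-MP libraries, against 22.5%, 28.5% and 36.2% in control libraries. The sum of the 3 genes came to 50.0, 55.7 and 84.3 FPKM with PS-MP, against 43.9, 48.5 and 74.0 FPKM in control cells, and stayed below the D cyclin sum in all 6 libraries. The ratio of D cyclin FPKM to that sum was 3.47, 5.09 and 4.38 in PS-MP libraries and 3.76, 5.52 and 4.49 in control libraries, lower with PS-MP for each number by less than the spread within a group. With Cdkn2d in the sum the ratio was 2.87, 4.21 and 3.92 in PS-MP libraries, against 3.09, 4.51 and 4.04 in control libraries.

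Levels per length, averaged over the libraries, fell in the order Ccnd1, Cdk4, Ccnd2, Cdkn2b, Cdkn2a, Ccnd3, Cdkn1b, Cdkn2c, Cdk6 and Rb1. Neighbours whose library values overlapped were Ccnd2 with Cdkn2b, Cdkn2b with Cdkn2a, Cdkn2a with Ccnd3, Cdkn1b with Cdkn2c, and Cdk6 with Rb1. The ranges of the other neighbours did not overlap, although the lowest Cdkn2c library (4.39 FPKM) lay just above the highest Cdk6 library (4.33 FPKM).

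**Figure D3:**
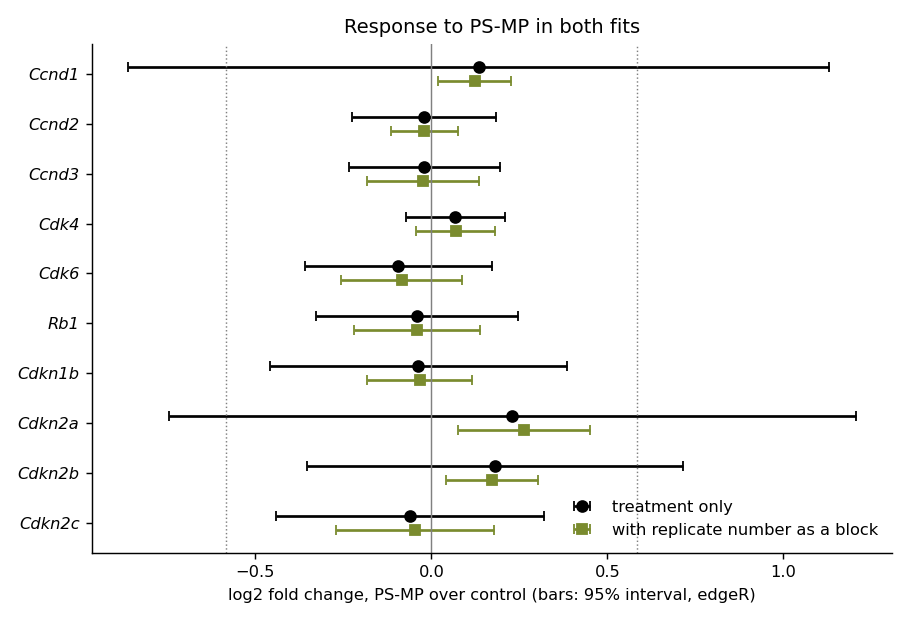
Log2 fold change of each member, PS-MP over control, with its 95% interval from edgeR with treatment as the only term (black circles) and with the replicate number as a block (green squares); dotted lines mark 1.5-fold either way. Intervals of Ccnd1, Cdkn2a and Cdkn2b reach past 1.5-fold without the block, and all 10 lie inside it with the block.

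Same-numbered libraries of the groups deviated together, though only weakly for number 2, so the comparison was also made with the number as a block. In that fit 0 of the 10 members and 1 of 17186 genes (0.00582%) were called, and 3 members, against 4.94% of all tested genes, had an unadjusted p under 0.05. Ccnd1, Cdkn2a and Cdkn2b had unadjusted p of 0.0247, 0.0119 and 0.0161, with log2 fold changes of 0.12, 0.26 and 0.17 and standard errors of 0.04, 0.08 and 0.06 (adjusted p = 0.884 each, edgeR). Over all tested genes 2.72% were higher with PS-MP at an unadjusted p under 0.05 in this fit. These were also the 3 members above their same-numbered control in each pair, a pattern of 14.6% of all tested genes. Within pairs 1, 2 and 3 the log2 difference was 0.11, 0.06 and 0.20 for Ccnd1, 0.34, 0.33 and 0.13 for Cdkn2a, and 0.17, 0.11 and 0.24 for Cdkn2b. For Ccnd2 (-0.03, -0.02 and -0.01) and Rb1 (-0.02, -0.002 and -0.10) the PS-MP library was the lower one of each pair, as it was for 13.3% of all tested genes. None of these differences passed after adjustment. The blocked interval of Cdkn2a ran from 0.08 to 0.45 on the log2 scale, that of Ccnd1 from 0.02 to 0.23 and that of Cdkn2b from 0.04 to 0.30.

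Markers of smooth muscle and pericytes were also read in the blocked fit, and 0 were called. Of the 8 markers 4 were lower with PS-MP at an unadjusted p under 0.05, against 2.22% of all tested genes, and 0 were higher. Their blocked log2 fold changes were -0.22 ± 0.05 for Myh11, -0.21 ± 0.04 for Des, -0.17 ± 0.05 for Cnn1 and -0.13 ± 0.05 for Pdgfrb (SE; adjusted p = 0.884 each, edgeR), with unadjusted p of 0.00168, 0.00172, 0.00512 and 0.0323 in that order. The most abundant markers of the list, Acta2 and Tagln, had blocked p of 0.161 and 0.839 (edgeR, unadjusted). Of the other marker lists, Fst of granulosa cells was lower (unadjusted p of 0.0355) and Lum of stroma higher (unadjusted p of 0.0495) with PS-MP in edgeR's blocked fit, with an adjusted p of 0.884 each. The part of these cell types in the blocked values of Ccnd1, Cdkn2a and Cdkn2b was not tested.

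The replicate number itself was then tested in the same fit, a choice made after the values had been seen. At an adjusted p under 0.05 with edgeR, 4 of the 10 members differed between the numbers, against 14.9% of all tested genes (7 of the 10 at an unadjusted p under 0.05, against 29.2%). They were Ccnd1 (adjusted p = 0.000102), Cdkn2a (0.000641), Cdkn2b (0.0017) and Cdkn1b (0.00909). Averaged over the groups, the highest number stood 2.63-fold above the lowest for Ccnd1, 2.49-fold for Cdkn2a, 1.57-fold for Cdkn2b and 1.44-fold for Cdkn1b. A range of at least 1.5-fold was found for 3 members and 27.2% of all tested genes. Of all tested genes 7.52% had a wider range than Ccnd1 and 30.1% a wider one than Cdkn1b. Ccnd2 (1.16-fold, adjusted p = 0.0533) passed with the strict filter and with counts divided by 4, which gave 5 members each. Rb1 (0.143), Cdkn2c (0.108), Cdk6 (0.212), Ccnd3 (0.439) and Cdk4 (0.959) did not pass with edgeR. The number took 98.7% of the log2 CPM variance of Ccnd1 over the 6 libraries, 99.1% of that of Cdkn1b and 4.44% of that of Cdk4, against a median of 61.2% over all tested genes. Over the 9324 genes with a mean above 10 CPM that median was 69.4%, and the median range between numbers was 1.15-fold.

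**Figure D4:**
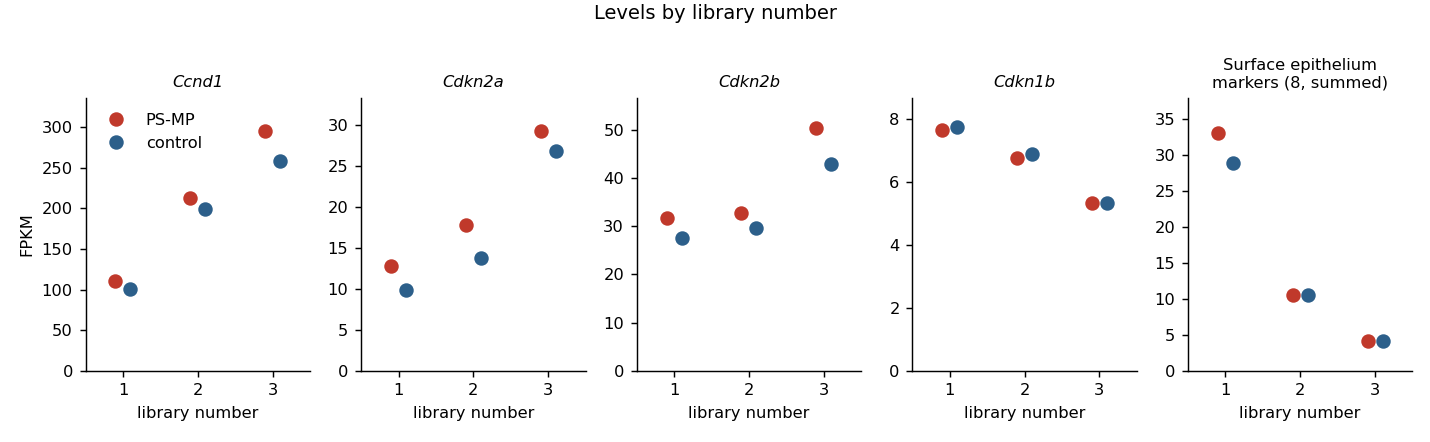
FPKM of Ccnd1, Cdkn2a, Cdkn2b and Cdkn1b, and the summed FPKM of 8 ovarian surface epithelium markers, by library number in PS-MP cells (red) and control cells (blue); the numbers are names and have no order. Same-numbered libraries lie close together, with Ccnd1 at 100.2 to 110 FPKM in those numbered 1 and 258 to 296 FPKM in those numbered 3, where the epithelium markers are lowest (4.14 to 4.17 FPKM).

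Markers of granulosa cells and of other cell types also differed between the numbers. Of the 8 granulosa markers tested, 3 did so: Fst (adjusted p = 0.00059), Inhbb (0.0103) and Inhba (0.012, edgeR). Fst and Inhba were highest in the libraries numbered 1, and Inhbb in those numbered 3. The 8 surface epithelium markers summed to 33.0, 10.5 and 4.17 FPKM in PS-MP libraries 1, 2 and 3, against 28.8, 10.6 and 4.14 FPKM in control libraries 1, 2 and 3. Of the 7 that were tested, 6 differed between the numbers at an adjusted p under 0.05 (edgeR), and Upk3b was listed at 0 in both libraries numbered 3. The 5 fibroblast and stroma markers summed to 1079, 870 and 707 FPKM with PS-MP, against 1295, 911 and 687 FPKM in control cells, with 4 of 5 differing between the numbers. Most of that sum was Col1a1 and Col1a2. Dcn was one of the 4 and ran the other way (adjusted p = 0.0181 for the number, edgeR). It was at 8.68, 10.7 and 11.5 FPKM in PS-MP libraries 1, 2 and 3, against 6.72, 8.36 and 12.4 FPKM in control libraries 1, 2 and 3. The 8 smooth muscle and pericyte markers summed to 3686, 3271 and 2464 FPKM with PS-MP, against 3502, 3343 and 2724 FPKM in control cells, with 5 of 8 differing. Leukocyte markers summed to 2.90 to 4.33 FPKM with PS-MP and 2.89 to 4.34 FPKM in control cells, and 0 of 3 tested differed between the numbers, while Ptprc was at 0 in 4 of the 6 libraries. Endothelium markers summed to at most 0.392 FPKM with PS-MP and 0.398 FPKM in control cells, and oocyte markers to at most 0.362 FPKM with PS-MP and 0.303 FPKM in control cells. The part of these cell types in the levels of Ccnd1, Cdkn2a, Cdkn2b and Cdkn1b was not tested.

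For each member, the gene most like it was found as the one with the smallest root mean square difference between centred log2 CPM values over the 6 libraries, among 9324 genes with a mean above 10 CPM. For Ccnd1 it was Klk8, a secreted serine protease (difference 0.06, against a spread of 0.59 of Ccnd1 around its own mean). Klk8 was at 11.6, 21.9 and 32.4 FPKM in PS-MP and at 10.3, 20.0 and 29.4 FPKM in control libraries. For Cdkn2a it was Mmp9, a gelatinase (0.08, against 0.56), and for Cdkn2b it was Alcam, a cell adhesion molecule (0.05, against 0.30). For Cdkn1b it was Hyls1 (0.03, against 0.22), and for Ccnd2 it was Fkbp8 (0.01, against 0.09). For the other members these genes were Zfp646 (Ccnd3), Nap1l4 (Cdk4), Dph2 (Cdk6), Mindy2 (Rb1) and Dennd2b (Cdkn2c), each within 0.04. Among the members the closest pairs were Ccnd2 with Ccnd3 (0.08) and Cdkn1b with Cdkn2c (0.09). The neighbours Cdkn2a and Cdkn2b were 0.28 apart, and Cdkn2a was closer to Ccnd1 (0.24). With 6 libraries that fall into 3 same-numbered pairs, such likeness is a description only.

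Other genes of G1 and S phase entry were read from a list of 51, all of which were tested. Of these 0 were called higher and 0 lower with PS-MP by edgeR, and the log2 fold change was above 0 for 33 and below 0 for 18, its median being 0.03 against 0.00 over all tested genes. Cdkn1a, the p21 inhibitor, was at 103, 140 and 153 FPKM in PS-MP libraries, against 103, 148 and 152 FPKM in control libraries, and so followed the number as Ccnd1 did (adjusted p = 0.0014 for the number, edgeR). Cdkn1c, the p57 inhibitor, averaged 1.42 ± 0.286 FPKM with PS-MP and 1.65 ± 0.474 FPKM in control cells, and Cdkn2d, the fourth INK4 gene (p19Ink4d), 10.7 ± 0.803 and 9.53 ± 1.28 FPKM (SD, n = 3 each). Ccne1, the cyclin that takes over from D cyclins, averaged 26.7 ± 2.32 FPKM with PS-MP and 24.2 ± 1.45 FPKM in control cells (SD, n = 3 each). E2f1, the transcription factor held by the retinoblastoma protein, averaged 16.9 ± 2.98 FPKM with PS-MP and 16.6 ± 1.43 FPKM in control cells (SD, n = 3 each). The most abundant genes of the list were Ctnnb1, Cdkn1a, Hmga2 and Cks1b, and the log2 fold changes of the other three were 0.03 ± 0.06 for Ctnnb1 (beta-catenin), -0.01 ± 0.10 for Hmga2 (a chromatin protein) and 0.15 ± 0.09 for Cks1b (a partner of CDKs in p27 turnover) (SE).

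Of the list's 16 E2F targets, 15 lay above 0 in log2 fold change (median 0.11) and 0 were called, with 2 at an unadjusted p under 0.05. In 5 of the 16 the groups did not overlap in CPM, against 6.21% of all tested genes and 0 of the 10 members. The 5 targets that differed between the numbers at an adjusted p under 0.05 (edgeR), Mcm3, Mcm5, Ccna2, Tk1 and Rrm1, were each highest in the libraries numbered 1. Ccna2, cyclin A2, was at 27.6, 21.3 and 16.1 FPKM in PS-MP libraries 1, 2 and 3, against 25.6, 18.8 and 15.3 FPKM in control libraries 1, 2 and 3, highest where Ccnd1 was lowest. The 16 targets summed to 336, 312 and 300 FPKM with PS-MP, against 319, 272 and 274 FPKM in control cells.

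**Figure D5:**
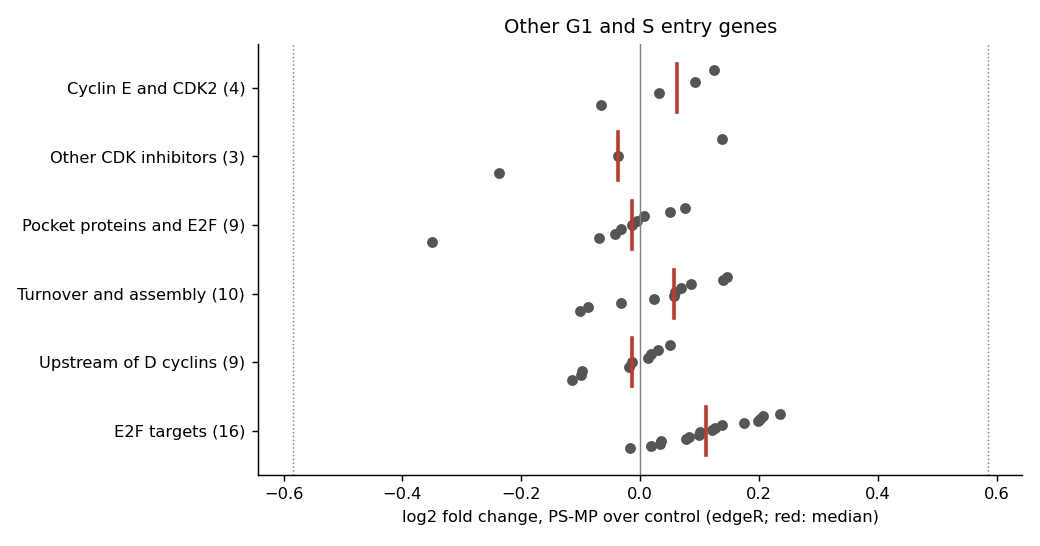
Log2 fold changes, PS-MP over control, of 51 other G1 and S entry genes by subgroup (number of genes in brackets), with the median of each subgroup in red and dotted lines at 1.5-fold. No gene reaches 1.5-fold, and the subgroup medians run from -0.04 for other CDK inhibitors to 0.11 for E2F targets.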

How the data were processed

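RNA of cultured mouse granulosa cells was sequenced in 3 PS-MP and 3 control libraries. The submitters' processing notes name cutadapt 1.9, HISAT2 2.2.1, StringTie 2.1.6 and GRCm39 as the build, and the annotation version was not found in any source used here. The deposited table holds FPKM, which the authors scaled to gene length and depth, beside a gene-level count, per the file headers. How the counts were made is not given, and since 6687 of them are 4 while 3161 are 3 and 2040 are 5, the deposited values were taken as estimated counts. They are whole, so rounding altered none. Columns were matched to samples by name, and 12 per-library columns under other names were used in no step. The sample titles call the libraries of a group biological replicates, without saying which mice or cultures each came from, and a p-value here reflects how these libraries vary.

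Tests used edgeR 4.0.16 in R 4.3.3 (filterByExpr, TMM scaling, quasi-likelihood, two-sided, treatment only), with Benjamini-Hochberg adjustment over 17186 genes. A gene was called at an adjusted p under 0.05 and 1.5-fold, the thresholds in the study's design text. DESeq2 1.42.0, limma 3.58.1, other scalings and filters, counts divided by 4, and leaving out libraries were alternatives. Deviations from group means correlated at 0.81, 0.15 and 0.62 between same-numbered libraries over 9324 genes above 10 CPM, all above 0.1, so the numbers were treated as pairs. PS-MP 2 with control 3 (0.38) and PS-MP 3 with control 2 (0.17) also lay above 0.1. Antisense overlap came from GENCODE M39. The genes named are all 10 members, 5 fixed pathway genes and the 4 most abundant of the pathway list, and for each member the gene most like it. Ccna2, Mcm3, Mcm5, Tk1, Rrm1 and the markers named by their blocked p or their p for the number were chosen after their values were seen. Members and lists were chosen with earlier results of these data known.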

Additional observations from a re-analysis of the deposited data

How the results depend on the processing

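In no alternative were any of the 10 members (0) or the 51 other pathway genes (0) called. Over all genes the count of 0 became 1 with the replicate block (Snhg4), 3 with DESeq2 (Snhg4, Rpl17 and Gm17494) and 2 with DESeq2 and the block (Rpl17 and Rps18-ps4), and ran from 0 to 15 with 1 library or 1 same-numbered pair left out (1, 15 and 9 in the blocked fits without pair 1, 2 and 3, and 1 without PS-MP 2). These genes were named after their values were seen. With a library or pair left out the log2 fold changes ran from -0.22 to 0.44 for Ccnd1, -0.078 to 0.04 for Ccnd2, -0.10 to 0.074 for Ccnd3 (-0.071 at the lowest with single libraries left out), 0.04 to 0.11 for Cdk4, -0.17 to 0.031 for Cdk6, -0.14 to 0.034 for Rb1, -0.18 to 0.092 for Cdkn1b, -0.16 to 0.71 for Cdkn2a, -0.07 to 0.39 for Cdkn2b and -0.20 to 0.10 for Cdkn2c. Signs turned without control 1 for Ccnd1 (-0.17), Cdk6 (0.031), Cdkn1b (0.08), Cdkn2a (-0.04) and Cdkn2c (0.10). Without PS-MP 3 they turned for Ccnd1 (-0.22), Cdkn1b (0.092), Cdkn2a (-0.16), Cdkn2b (-0.07) and Cdkn2c (0.009). Without PS-MP 1 they turned for Ccnd2 (0.04), Ccnd3 (0.064) and Rb1 (0.02), without control 3 for Ccnd2 (0.02) and Ccnd3 (0.006), and without control 2 for Rb1 (0.034). Each such fit leaves 1 library without its partner. In blocked fits that leave out a pair, signs turned only without pair 1, for Ccnd3 (0.074), Cdk6 (0.005) and Cdkn2c (0.056). The other 10 settings kept each member's sign, with ranges such as 0.12 to 0.14 for Ccnd1 and 0.23 to 0.29 for Cdkn2a. The difference in D cyclin sum, PS-MP minus control, was 20.4 FPKM with all libraries, 12.8 with FPKM rescaled to equal sums, and -26.7 to 71.4 with a library left out. With Cdkn2d added, the difference in the sum of Cdkn2a, Cdkn2b and Cdkn2c was 8.97 in place of 7.86 FPKM. Between 4 and 5 members differed between the replicate numbers in all settings tried. With 3 libraries a group, the intervals of Ccnd1, Cdkn2a and Cdkn2b reached past 1.5-fold without the block. With the block they lay inside 1.5-fold. The part of depth in the width of these intervals was not tested.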
